A study of Rattus norvegicus with 9 samples.

Results

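The genes described here encode the pyruvate dehydrogenase complex, the carriers and enzymes that feed it, the kinases and phosphatases that regulate it, the enzymes of the citric acid cycle, and the cytosolic enzymes that handle the same metabolites. The list was given by gene name and held 37 names. Of these, 35 were found as gene names of the array files, with 40 probes. The other names, Idh3b and Fh1, are second spellings of genes that the array calls Idh3B and Fh. All 35 genes and 39 of their 40 probes passed the filter on dim probes, which left 13935 genes and 15841 probes in the whole comparison. A probe had to be bright on at least 4 arrays to pass, which the 4 MSC samples alone could provide. Most members were bright on all arrays, and 11 of them lay in the second brightest and 17 in the brightest decile of the genes tested.

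Pyruvate made by glycolysis or from lactate enters the mitochondrion through the pyruvate carrier. Inside, pyruvate dehydrogenase turns it into acetyl-CoA, and pyruvate carboxylase turns it into oxaloacetate. Kinases switch pyruvate dehydrogenase off by phosphorylation and phosphatases switch it on again. The citric acid cycle oxidizes acetyl-CoA and hands the electrons to the respiratory chain. Kidney tubules, and the proximal tubule and thick ascending limb above all, are packed with mitochondria because salt and solute transport needs much ATP, and they suffer early when ischaemia stops oxidation.

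Each array measured the RNA of rat kidney tissue from Fisher F344 donors. All kidneys had 20 min. of warm ischaemia. The 5 samples of the NP group are called not perfused in their treatment label, while their titles speak of perfusion with Belzer solution (BS) for 4 hrs at 4°C. They are called NP here, as in the study. The 4 MSC samples came from kidneys that were then perfused for 4 hrs at 4°C with BS to which 3000000 mesenchymal stromal cells (MSC), grown from the bone marrow of EGFP transgenic Sprague Dawley rats, had been added. Perfusion, cold and MSC cannot be told apart in this comparison, and the ischaemia is common to both groups. In whole tissue, fewer cells of a type and less RNA per cell cannot be told apart either.

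The arrays lay on 2 slides, with NP replicates 1 to 3 and MSC replicates 1 and 2 on the first and the others on the second. Between 65.6% and 74.3% of gene spots were well above background, and no gene spot was saturated. Of the proximal tubule markers of kidney, 9 of 9 were well above background on every array. One sample, NP replicate 2, stood apart. It was the lowest NP sample for 17 of the 35 members and the highest for 5, a count not made over all genes. By mean marker level it was also the lowest NP sample for lists that included distal convoluted and connecting tubule, principal cell and intercalated cell. It was the highest for the mesenchymal stromal cell and endothelium lists. MSC replicates 3 and 4 had high levels of fat markers. Several values were also computed without these samples.

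The probes of 3 members are printed because the results turn on these genes and because, by the positions in the files, the probes span an intron or start early in the transcript. On the rat build rn4, the Pdhb probe (NM_001007620, from base 892) lies at chr15:18740251-18740642 on the plus strand and spans an intron. The Sucla2 probe (NM_001108387, from base 1202) lies at chr15:54264543-54265469 on the plus strand and spans an intron too. The Mdh2 probe (NM_031151, from base 583) lies within 60 bases at chr12:22025592-22025651 on the minus strand. They are given 5′ to 3′ in lower case, with no part singled out.
Pdhb: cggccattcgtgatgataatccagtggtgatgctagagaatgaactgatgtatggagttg
Sucla2: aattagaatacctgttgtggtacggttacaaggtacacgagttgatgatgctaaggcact
Mdh2: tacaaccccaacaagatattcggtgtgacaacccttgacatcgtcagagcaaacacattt

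Promoters were read from RefSeq on build GRCr8, where 31 of the 35 members had an entry from 250 bases before to 50 bases after the start of the gene. They were searched on both strands for the motif of NRF1, a transcription factor of nuclear genes for mitochondrial proteins. This motif was found in 3 of the 31 member promoters (9.7%) and in 4.71% of the 27457 promoters of all genes. The 3 were Dld, Sucla2 and Sdha. The parts upstream of the start are printed for Sucla2 (chr15:55161644-55161893, plus strand) and Sdha (chr1:30764303-30764552, plus strand), whose matches lay before the start, with the matches in capitals. In Dld, and for another match in Sdha, the letters reached across the start.
Sucla2 promoter: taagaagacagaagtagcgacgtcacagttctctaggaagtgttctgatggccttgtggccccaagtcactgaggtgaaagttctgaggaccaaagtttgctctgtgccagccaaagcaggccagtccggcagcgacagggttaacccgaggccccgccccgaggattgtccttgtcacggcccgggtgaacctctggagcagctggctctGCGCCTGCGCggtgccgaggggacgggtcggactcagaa
Sdha promoter: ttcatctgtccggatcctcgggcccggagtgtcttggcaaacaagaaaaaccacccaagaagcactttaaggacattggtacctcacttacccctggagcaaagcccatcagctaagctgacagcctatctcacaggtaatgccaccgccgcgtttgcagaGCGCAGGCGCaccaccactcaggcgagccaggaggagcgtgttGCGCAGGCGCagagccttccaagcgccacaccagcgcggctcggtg

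The same search was made for 6 other motifs. GGGCGG, the core of SP1 sites, was in 22 of 31 member promoters (71.0%) and 34.9% of all promoters. CCGGAAG, the core of ETS sites, was in 7 (22.6%) against 9.22%, and TGACGTCA, the CREB site, in 3 (9.7%) against 1.91%. AAGATGGC, the core of YY1 sites, and NACGTGC, which holds the core of HIF sites, were in 4 member promoters each (12.9%), against 3.44% and 5.81% of all promoters. AAGGTCA, a site of the oestrogen-related receptors, was in 1 (3.2%) against 4.37%. The median GC content was 62.3% in member promoters and 52.3% in all promoters, and its part in these shares was not tested.

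In limma no member had both an FDR below 0.05 and a fold change above 1.5, and neither did any of the 13935 genes (0%). At p under 0.05 before adjustment, 6 of the 35 members (17.1%) were higher in MSC samples, against 6.57% of all genes tested, and 0 members were lower, against 5.1% of all genes. Mpc1, Pdhb, Dld, Idh2, Sucla2 and Mdh2 made up the 6. With MSC replicates 3 and 4 both left out, 1 member (Pdhb) was higher at that p, against 3.84% of all genes. The log2 difference, MSC minus NP, was above 0 for 30 of the 35 members and for 48.5% of all genes. Its median was 0.14 over the members and -0.01 over all genes. In 6 members (17.1%) every MSC sample was above every NP sample, which held for 3.16% of all genes, and in 0 members was every MSC sample below, against 2.12% of all genes. Those 6 were Mpc1, Pdhb, Dld, Idh2, Dlst and Sucla2. In the brightest decile of all genes 54.7% had a difference above 0 and 5.02% were higher at that p. As the members were chosen with results of these arrays known, these counts are a description.

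**Figure D1:**
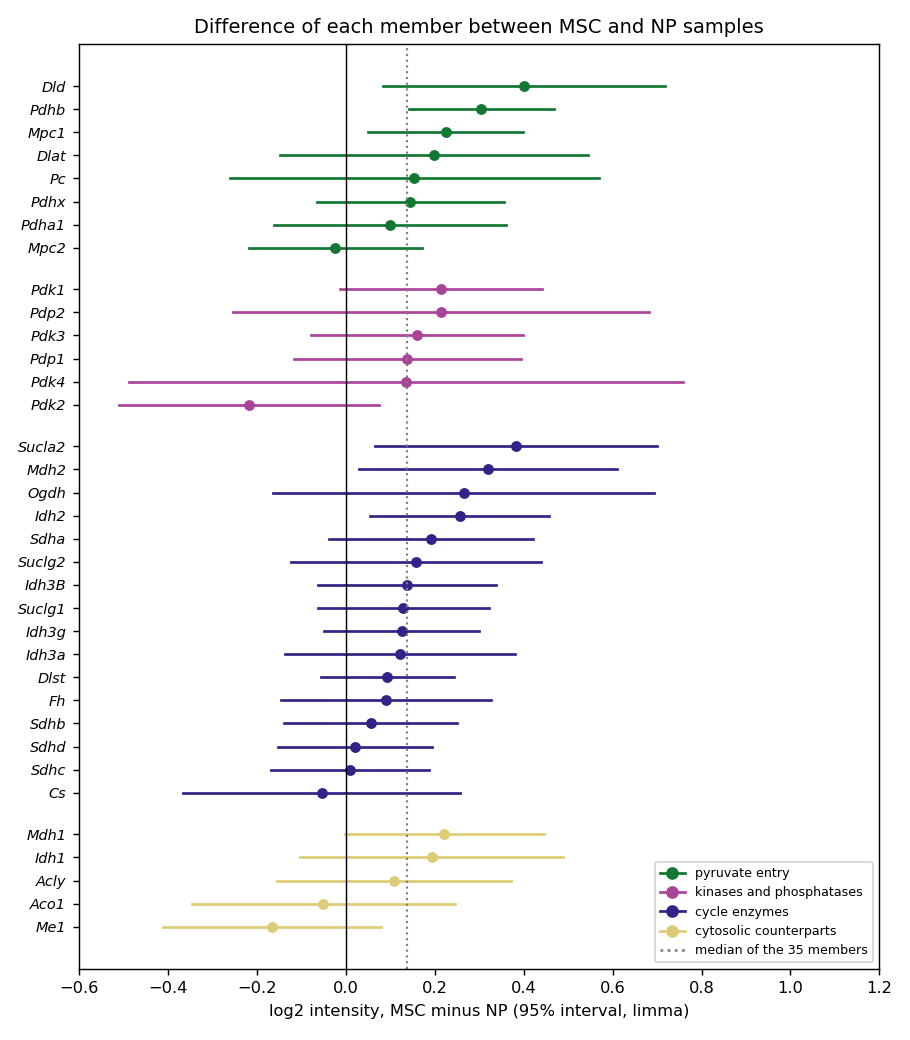
Difference in log2 intensity between MSC and NP samples (x axis) for each of the 35 members (y axis), with the 95% interval from limma as a line, grouped and coloured by family. The points of 30 members lie right of 0, and the dotted line marks the median of all 35, 0.14.

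The pyruvate entry genes bring pyruvate into the mitochondrion and convert it. Of these 8 genes, 7 had a difference above 0 and 3 were higher with MSC at p under 0.05 before adjustment (all genes 48.5% and 6.57%). The median difference was 0.18 on the log2 scale. Pdhb encodes the beta subunit of the first enzyme of pyruvate dehydrogenase. Its log2 intensity was 14.73, 14.59, 14.65, 14.57 and 14.56 in NP replicates 1 to 5 and 15.02, 14.87, 14.89 and 14.92 in MSC replicates 1 to 4. Every MSC sample exceeded every NP sample, and within NP replicate 1 was the highest. The difference was 0.31 on the log2 scale (standard error 0.07), a fold change of 1.24. Pdhb had the smallest p of all members (unadjusted p = 0.00188, FDR 0.334 from limma), which ranked 69 among all genes, and an exact two-sided permutation p of 0.00794, the smallest that 9 samples allow. Within the first slide the difference was 0.29 and within the second 0.34. Pdhb and Idh2 were picked by the study on these same arrays, so that their separation is not independent evidence.

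Dld encodes dihydrolipoamide dehydrogenase, the enzyme that reoxidizes lipoate in pyruvate dehydrogenase and also in 2-oxoglutarate dehydrogenase. The log2 intensities of Dld were 14.11, 14.15, 14.63, 14.67 and 14.71 in NP replicates 1 to 5 and 14.90, 14.81, 14.92 and 14.79 in MSC replicates 1 to 4. NP replicates 1 and 2 were far below the other NP samples, and the MSC samples lay above the NP samples by a narrow margin. The difference of 0.40 (standard error 0.14), a fold change of 1.32, was the largest of any member (unadjusted p = 0.0177, FDR 0.353 from limma, exact permutation p = 0.0238). The low NP samples were both on the first slide, where the difference was 0.56, while it was 0.17 on the second slide.

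Mpc1 encodes a subunit of the mitochondrial pyruvate carrier. In log2 intensity it was at 16.84, 16.97, 16.95, 17.00 and 17.06 in NP replicates 1 to 5 and 17.09, 17.21, 17.14 and 17.31 in MSC replicates 1 to 4. The groups did not overlap, but NP replicate 5 and MSC replicate 1 were close. The difference was 0.23 (standard error 0.08; FDR 0.348 from limma). For Mpc2, which encodes its partner in the carrier, the difference was -0.02 with a 95% interval from -0.22 to 0.17, and its other probe gave -0.10. Both Mpc2 probes overlapped between the groups.

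The other genes of this family did not pass an unadjusted p of 0.05 in the main comparison. Pdha1 did without NP replicate 2, Dlat without NP replicate 1 and Pdhx with array weights, each higher with MSC. For Pdha1, the alpha subunit partner of Pdhb, the probe kept had a difference of 0.10 and its second probe one of 0.15 (exact permutation p = 0.468 and 0.0556). NP replicate 2 alone was high for the probe kept, at 15.09 against 14.56 to 14.67 in the other NP samples. For Dlat, the acetyltransferase core of the complex, MSC samples lay between 12.81 and 12.99, while NP samples ran from 12.19 in NP replicate 2 to 13.09 in NP replicate 1. The wide NP group covered the MSC group and the difference was 0.20 (standard error 0.15). Pdhx, which binds Dld to the core, had a difference of 0.14 by the probe of one transcript record, while the probe of another stayed between 7.99 and 8.10 on the log2 scale on all arrays and was left out as dim. Pc, pyruvate carboxylase, had 16.45 in MSC replicate 3 and 15.90 to 16.13 in the other MSC samples, against 15.53 to 16.33 in NP samples, and a difference of 0.15 (standard error 0.19).

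**Figure D2:**
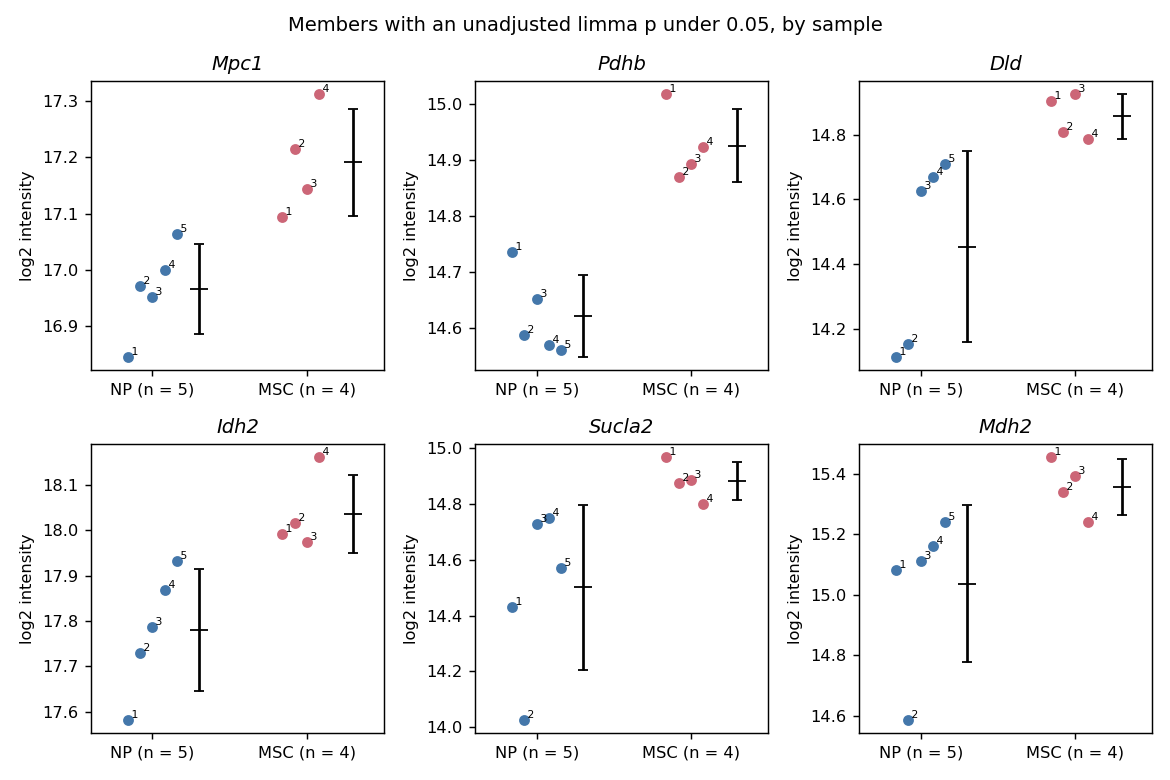
Log2 intensity (y axis) of the 6 members with an unadjusted p under 0.05 in limma, in NP (blue) and MSC (red) samples, with the replicate number at each point and the mean ± SD beside them in black. Every MSC sample lies above every NP sample except for Mdh2, where MSC replicate 4 is level with NP replicate 5.

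The kinases and phosphatases set how much of the pyruvate dehydrogenase protein is active. None of these 6 genes passed an unadjusted p of 0.05 in limma in either direction, though with array weights Pdk1, Pdk3 and Pdp1 were higher and Pdk2 was lower at that p. The median difference was 0.15, with 5 of 6 above 0 (all genes 48.5%). Pdk2, a kinase that is strongly expressed in kidney, had the lowest difference of all members, -0.22 on the log2 scale (standard error 0.13, 95% interval from -0.51 to 0.08, FDR 0.536 from limma). Its log2 intensity was 16.44, 16.11, 16.64, 16.60 and 16.48 in NP replicates 1 to 5 and 16.40, 16.11, 16.43 and 16.01 in MSC replicates 1 to 4. Apart from NP replicate 2, all NP samples were above all MSC samples. Without NP replicate 2, Pdk2 was lower at an unadjusted p under 0.05, and it was the only member that was.

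Pdk1, the kinase gene known as a target of hypoxia signalling, had log2 intensities of 9.09, 9.06, 9.50 and 9.15 in the MSC samples in order of replicate and of 8.90 to 9.08 in NP samples. Of the MSC samples 3 were above all NP samples and MSC replicate 3 was far above the rest. The difference was 0.22 (standard error 0.10, unadjusted p = 0.0602 from limma, exact permutation p = 0.0238). Pdk4, the kinase gene that rises with fasting and fatty acid use, had the widest spread, from 8.58 to 9.79 in NP samples and from 8.73 to 9.63 in MSC samples. NP replicate 2 and MSC replicate 2 were the high samples of their groups, and the difference of 0.14 had a 95% interval from -0.49 to 0.76, which includes differences of either sign. Pdk1 and Pdk4 were the 2 members in the dimmest decile of the genes tested. Pdk3 and the phosphatases Pdp1 and Pdp2 had differences of 0.16, 0.14 and 0.22 with overlapping groups.

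The cycle enzymes were represented by 16 genes. For 15 of them the difference was above 0 (all genes 48.5%), and its median was 0.13. This median was 0.08 without NP replicate 2 and 0.05 on the second slide alone. Sucla2, Mdh2 and Idh2 had p under 0.05 before adjustment, each higher with MSC, as were 6.57% of all genes. Sucla2 encodes the beta subunit of the ATP-forming succinyl-CoA synthetase. Values of Sucla2, again log2 intensity, were 14.43, 14.03, 14.73, 14.75 and 14.57 in NP replicates 1 to 5 and 14.97, 14.88, 14.89 and 14.80 in MSC replicates 1 to 4. The groups did not overlap, though NP replicates 3 and 4 came close to MSC replicate 4. The difference was 0.38 (standard error 0.14), a fold change of 1.30 (FDR 0.378 from limma, exact permutation p = 0.0317), and it was 0.26 without NP replicate 2. On the first slide it was 0.53 and on the second 0.18.

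Mdh2 encodes mitochondrial malate dehydrogenase, which makes oxaloacetate in the last step of the cycle. Its log2 intensity was 15.08, 14.59, 15.11, 15.16 and 15.24 in NP replicates 1 to 5 and 15.46, 15.34, 15.39 and 15.24 in MSC replicates 1 to 4. NP replicate 2 was well below the rest of its group, and MSC replicate 4 was within the NP range. The difference of 0.32 (standard error 0.13, FDR 0.399 from limma) was 0.21 without NP replicate 2. It was 0.47 on the first slide, which holds that sample, and 0.11 on the second.

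Idh2 encodes the NADP-dependent isocitrate dehydrogenase of mitochondria. The log2 intensity of Idh2 was 17.58, 17.73, 17.79, 17.87 and 17.93 in NP replicates 1 to 5 and 17.99, 18.02, 17.97 and 18.16 in MSC replicates 1 to 4. No MSC sample was within the NP range, and the difference was 0.26 (standard error 0.09, FDR 0.352 from limma). It was 0.30 on the first slide and 0.17 on the second. The genes of the NAD-dependent isocitrate dehydrogenase, Idh3a, Idh3B and Idh3g, had smaller differences of 0.12, 0.14 and 0.13. For each of these the groups overlapped.

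Dlst encodes the succinyltransferase core of 2-oxoglutarate dehydrogenase. It was read from 10 spots per array and had a small spread, with log2 intensities of 15.97, 15.87, 15.95, 16.02 and 16.00 in NP replicates 1 to 5 and 16.08, 16.03, 16.04 and 16.07 in MSC replicates 1 to 4. Every MSC sample exceeded every NP sample, but the difference was only 0.09 (standard error 0.07, FDR 0.598 from limma, exact permutation p = 0.0159). Ogdh, which encodes the first enzyme of the same complex, had 2 probes with alike differences and unlike spread. The probe kept gave 0.27 (standard error 0.19), with NP replicate 2 at 13.94 against 14.52 to 14.93 in the other NP samples. The other gave 0.26 (standard error 0.10, unadjusted p = 0.0310 from limma), with NP samples from 14.45 to 14.82 and MSC samples from 14.79 to 15.04. For that probe 3 of the 4 MSC samples were above all NP samples.

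No other cycle gene had p under 0.05 before adjustment in the main limma comparison. Sdha was higher at that p without MSC replicate 4, and Ogdh when the brightest probe was taken. The exact permutation p was 0.0238 for Suclg1 and 0.0476 for Idh3g, each with 3 MSC samples above all NP samples. The genes for succinate dehydrogenase, which is also complex II of the respiratory chain, had differences of 0.19 for Sdha, 0.06 for Sdhb, 0.02 for Sdhd and 0.01 for Sdhc. The 95% intervals of the last 3 stayed between -0.17 and 0.25, whereas that of Sdha ran from -0.04 to 0.42 and 3 MSC samples were above all NP samples. Suclg1 and Suclg2, the subunits that join or replace Sucla2 in succinyl-CoA synthetase, had 0.13 and 0.16. Fh, fumarase, had 0.09. Cs, citrate synthase, the condensing enzyme at the head of the cycle and a common measure of mitochondrial content, was the only cycle gene with a difference below 0, at -0.05 (95% interval from -0.37 to 0.26). NP replicate 2 was high for Cs, at 14.89 against 14.24 to 14.36 in the other NP samples, and the MSC samples were at 14.26 to 14.57.

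**Figure D3:**
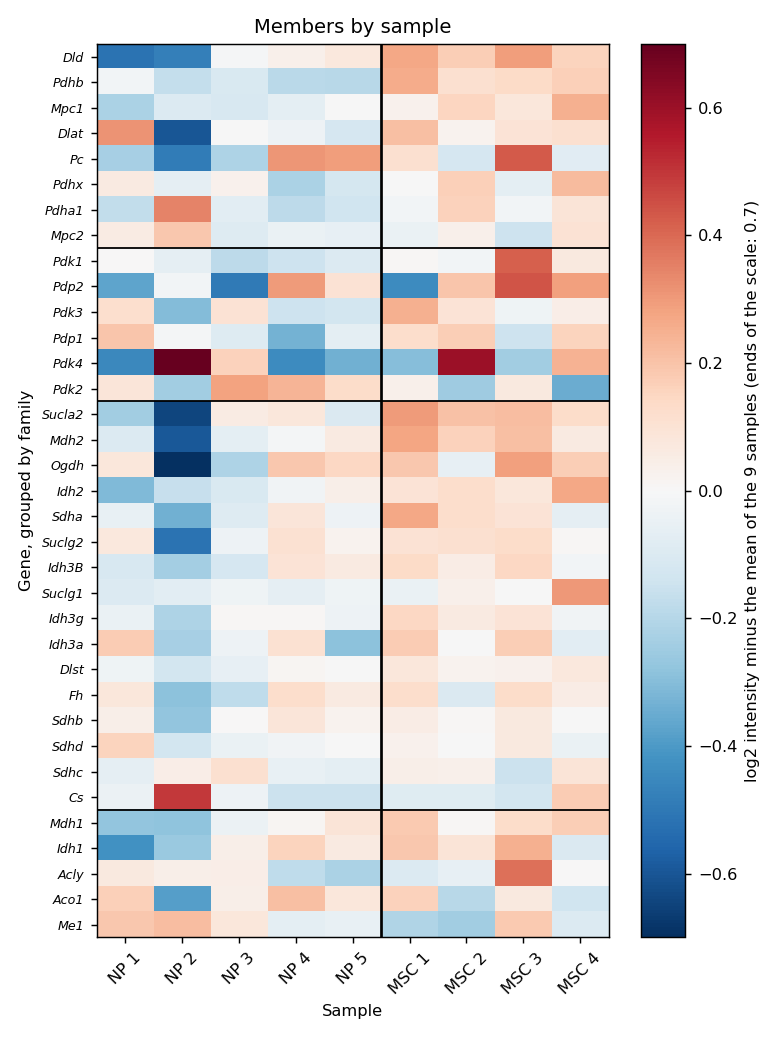
Log2 intensity of each member (rows, grouped by family and sorted by difference) in each sample (columns, NP left of the black line), shown as the deviation from the mean of the 9 samples on the colour scale. NP replicate 2 is the lowest NP sample for 17 of 35 members, and high for Cs, Pdha1 and Pdk4.

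In the main comparison the 5 genes for cytosolic enzymes had no member at an unadjusted p under 0.05. Their median difference was 0.11, and it was -0.001 without MSC replicate 3. Mdh1, the cytosolic partner of Mdh2 in the malate-aspartate shuttle, was nearest. On the log2 intensity scale it had 15.53, 15.52, 15.77, 15.82 and 15.90 in NP replicates 1 to 5 and 15.99, 15.82, 15.94 and 15.98 in MSC replicates 1 to 4. Of the MSC samples 3 were above all NP samples, and the difference was 0.22 (standard error 0.10, unadjusted p = 0.0513 from limma). Idh1 had 0.19 and Aco1, the cytosolic aconitase that also acts as an iron sensor, -0.05. Me1, malic enzyme, had -0.17 by one probe and -0.16 by the other, with overlapping groups for both. Acly, which splits citrate to acetyl-CoA for fat synthesis, had 15.19 in MSC replicate 3 and 14.71 to 14.81 in the other MSC samples, against 14.59 to 14.88 in NP samples. On the second slide alone Acly was higher at an unadjusted p under 0.05.

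MSC replicate 3 was the highest MSC sample for 14 of the 35 members, among them Acly, Pc, Pdk1 and Me1. It also had the highest score of the fat list. A score is the mean over a list's genes of log2 intensity centred gene by gene, here over 5 of the 8 listed genes. MSC replicate 3 scored 2.32, MSC replicate 4 scored 1.61, MSC replicates 1 and 2 scored -1.19 and 0.29, and NP samples scored from -1.30 to 0.22. Plin1, Lep and Lipe of that list did not pass the filter. The score of the brown fat list, by Ucp1 and Cidea, was 2.76 and 1.67 in MSC replicates 3 and 4 and at most 0.32 in all others. With these 2 MSC samples left out, the difference was 0.32 for Pdhb, 0.40 for Dld, 0.19 for Mpc1, 0.22 for Idh2, 0.42 for Sucla2 and 0.36 for Mdh2, where Pdhb alone stayed at p under 0.05 before adjustment among the 6, and Me1 was lower at that p. The median of the cytosolic genes was then -0.03. The part of fat in the values of Acly, Pc and Pdk1 was not tested.

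Tubule marker lists were read beside the members. For the thick ascending limb, 5 of 6 genes had a difference above 0 and 3 were higher at an unadjusted p under 0.05, with scores from -0.005 to 0.43 in MSC samples and from -0.26 to -0.02 in NP samples. For the distal convoluted and connecting tubule it was 5 of 5 and 3 (scores 0.21 to 0.42 against -0.62 to 0.21), for intercalated cells 5 of 5 and 3 (0.14 to 0.49 against -0.71 to 0.21) and for principal cells 5 of 5 and 2 (0.00 to 0.53 against -0.66 to 0.07). For the proximal tubule it was 7 of 9 and 2 (-0.02 to 0.15 against -0.28 to 0.09). The scores of MSC and NP samples overlapped for each of these lists but the thick ascending limb, and of all genes 6.57% were higher at that p. All listed genes of these lists that were tested were well above background on every array. Of the red cell list only 2 of 5 genes passed, and both were lower with MSC at p under 0.05 before adjustment. The red cell scores overlapped, with -3.13, 0.61, -1.38 and 0.10 in MSC replicates 1 to 4 and 0.02 to 1.30 in NP samples. The leukocyte, endothelium, podocyte, mesenchymal stromal cell and adrenal lists together had 1 gene higher and 0 lower at that p. The part of any of these in the values of the members was not tested.

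As a score of the same kind, the pyruvate entry genes had 0.10 ± 0.02 in the MSC samples (SD, n = 4), while NP samples had -0.08 ± 0.05 (SD, n = 5), with no overlap. The cycle enzymes had 0.08 ± 0.03 and -0.06 ± 0.11. These groups were apart only by a narrow margin, with MSC replicate 2 at 0.043 and NP replicate 4 at 0.035. NP replicate 2 was at -0.26 and the other NP samples were between -0.05 and 0.04. The kinases and phosphatases had 0.06 ± 0.08 and -0.05 ± 0.04, and MSC replicate 1 was within the NP range. For the cytosolic genes, with 0.03 ± 0.12 and -0.03 ± 0.07, MSC replicate 2 and MSC replicate 4 were within it. The SD was smaller in MSC than in NP samples for 27 of 35 members (77.1%), and for 73.8% of all genes.

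**Figure D4:**
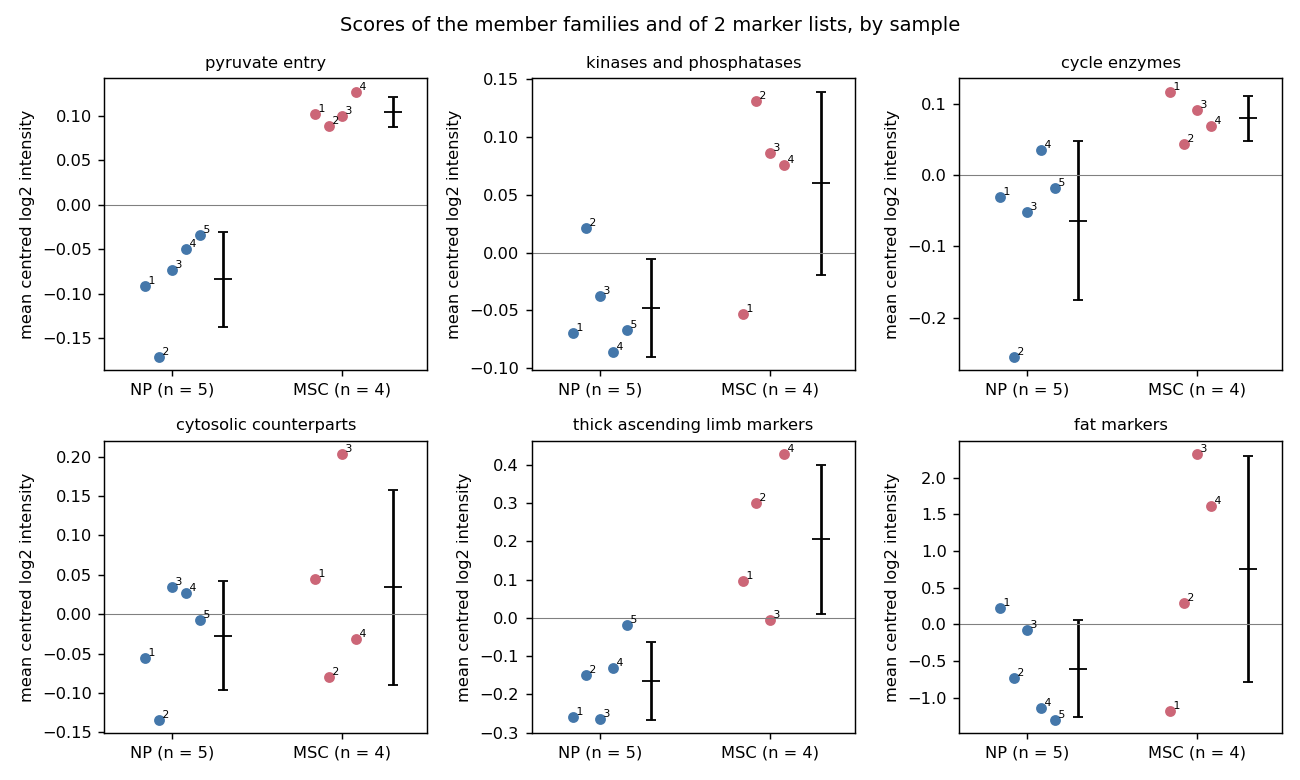
Score (y axis, mean over a list of log2 intensity centred gene by gene) of the 4 families of members and of the thick ascending limb and fat marker lists, for NP (blue) and MSC (red) samples with replicate numbers and the mean ± SD in black. MSC and NP samples do not overlap for pyruvate entry, nor, by a narrow margin, for the cycle enzymes and the thick ascending limb. MSC replicates 3 and 4 stand out for fat.

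Other genes around the pathway were taken from a list of 39 names, of which 33 passed the filter. Their difference was above 0 for 25 (all genes 48.5%), with a median of 0.11. At p under 0.05 before adjustment 5 were higher and 1 lower with MSC (all genes 6.57% and 5.1%). The 5 were Ldhd (0.41), which oxidizes D-lactate, Ldhb (0.20), the heart type lactate dehydrogenase, Ogdhl (0.34), a relative of Ogdh, Me3 (0.33), a mitochondrial malic enzyme, and Got1 (0.50), the cytosolic aspartate aminotransferase of the malate-aspartate shuttle. Gcdh, glutaryl-CoA dehydrogenase of lysine breakdown, was the lower gene (-0.18). All had an FDR of 0.335 or more in limma. For Ldhb, and for Bckdk, the kinase of branched-chain ketoacid dehydrogenase (difference 0.17), every MSC sample was above every NP sample. This held for 3.16% of all genes. The genes for lipoate synthesis, assembly factors and regulators had 0 members at that p in either direction, and their median was 0.02.

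Without NP replicate 2 the difference was 0.30 for Pdhb, 0.33 for Dld, 0.23 for Mpc1 and 0.24 for Idh2, and all 6 members kept p under 0.05 before adjustment in limma, with Pdha1 as an added higher gene and Pdk2 as a lower one.

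The sign of the difference was the same on both slides for Mpc1, Pdhb, Dld, Idh2, Dlst, Sucla2 and Mdh2. When limma took the slide as a block, the differences were 0.31 for Pdhb, 0.38 for Dld, 0.22 for Mpc1, 0.24 for Idh2, 0.37 for Sucla2 and 0.31 for Mdh2, with an FDR from 0.287 to 0.382. Whether the difference itself differs between the slides was not tested.

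**Figure D5:**
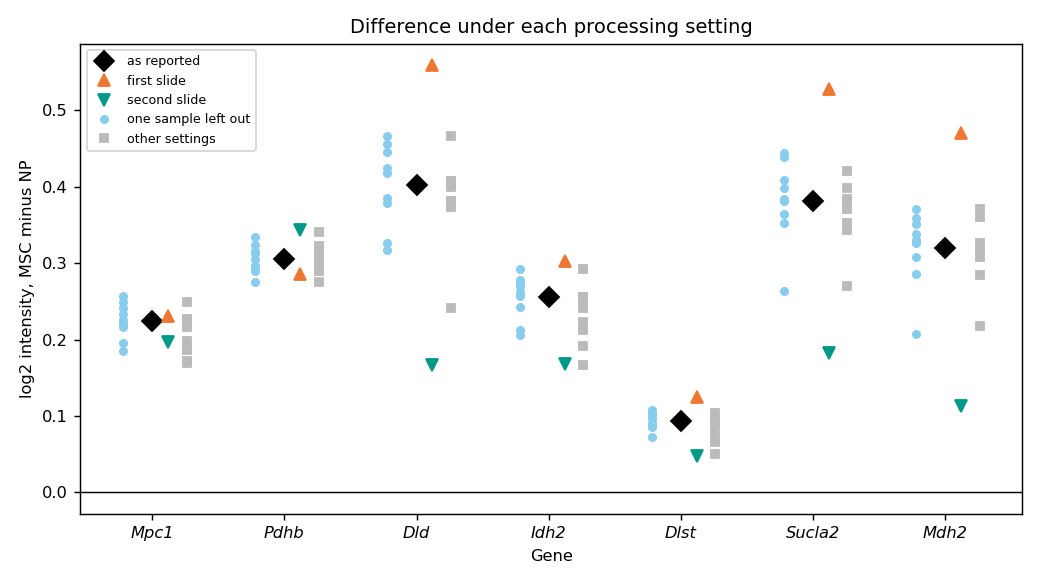
Log2 difference between MSC and NP samples (y axis) of 7 members (x axis) as reported (diamond), within each slide (triangles), with each sample left out in turn (light blue) and in the other settings (grey). All values lie above 0, and those of Dld, Sucla2 and Mdh2 are lowest on the second slide.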

How the data were processed

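Rat kidney RNA labelled with Cy3 was hybridized to one-colour Agilent arrays, of which 9 were used (5 NP, 4 MSC). The study discarded a further MSC sample for poor quality after hybridization. The authors deposited the intensity of each spot from Agilent Feature Extraction 10.7.3.1, as mean pixel brightness and also background-subtracted, and a table of log2 values normalized between arrays. Here the mean intensity was log2 transformed and normalized by cyclic loess in limma 3.58.1 (R 4.3.3), as in the study's methods, without background subtraction. Against the deposited log2 values, Pearson's r per array was between 0.9999 and 0.99997 across 15841 probes. Spots with outlier flags were left out (273 to 593 gene spots per array). The methods' filter can be read in several ways. A probe was kept when its log2 value exceeded 1.1 times the 95th percentile of the negative controls on at least 4 arrays. Each probe took the mean of its spots, and each gene the probe that varied most over the arrays.

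MSC and NP samples were compared in limma (lmFit and eBayes) over all 13935 genes, with the Benjamini-Hochberg FDR. Exact two-sided permutation tests over samples were made for the 35 members one by one and were not adjusted, with a smallest possible p of 0.00794. The number of arrays limits the precision. The fit was tested on simulated data.

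The members and all gene lists were chosen with earlier results of these data known. Members at an unadjusted p under 0.05 or with groups that did not overlap were given in full, and of the other pathway genes those at that p. The rest were summarised, with some singled out after their values were seen. Alternatives took other intensity columns, normalizations, filters, probes, variance models and blocks, left out samples, and used the deposited log2 values. Names and rn4 probe positions were taken from the array files. Replicate numbers were not taken as pairs in the main comparison.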

Additional observations from a re-analysis of the deposited data

Results flagged for a closer look

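A sample far from the rest of its group was looked for in 78 groups of values, the 35 members and the 4 family scores in each group, as the gap from the outermost sample to the nearest other one, divided by the group's range. The gap was beyond Dixon's 95% critical value in 9 of them, where chance gives about 1 in 20, or 3.9. NP replicate 2 accounted for 7. It was the highest NP sample for Pdha1 (ratio 0.80) and Cs (0.82), and the lowest for Idh3g (0.748), Suclg2 (0.77), Sdhb (0.764), Mdh2 (0.755) and Aco1 (0.714). MSC replicate 3 was apart as the lowest MSC sample for Pdp1 (0.857), and MSC replicate 4 as the highest for Cs (0.863). For none of the family scores was a sample beyond the critical value. Without NP replicate 2, 30 of 35 members still had a difference above 0, and their median was 0.10.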

How the results depend on the processing

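The number of members called was 0 in all 25 alternatives, while of all genes 2 were called with array weights and 4 on the second slide alone, and the number of members with a difference above 0 ranged from 27 to 31. The number higher at an unadjusted p under 0.05, 6 in the main comparison, was 2 with 75th percentile scaling (Pdhb and Dld, at 4.87% of all genes), 10 with array weights (8.03%, with Pdhx, Pdk1, Pdk3 and Pdp1 added), 1 on the first slide alone (Dld, 3.56%), 3 on the second (3.6%, Pdhb the 1 gene shared with the main comparison) and 1 with MSC replicates 3 and 4 both left out (Pdhb, 3.84%), the last chosen after seeing the data. With 1 sample left out it ranged from 4 (without MSC replicate 1, at 4.89% of all genes) to 7, and the share of all genes reached 7.34% without NP replicate 1. Without MSC replicate 1, Sucla2 and Mdh2 no longer passed, without MSC replicate 4, Mpc1 and Idh2, and without MSC replicate 2 or MSC replicate 3, Mdh2. With the processed signal the number was 6, with Pdk1 in the place of Mpc1, which no longer passed. Pdk1 also passed with normexp background correction, with no filter, on the second slide alone and without MSC replicate 2. The number lower was 1 with array weights (Pdk2, at 8.42% of all genes), on the first slide alone (Me1, 2.2%) and with MSC replicates 3 and 4 both left out (Me1, 2.66%), and with 1 sample left out it ranged from 0 to 1 (Pdk2 without NP replicate 2, at 4.12%, and Me1 without MSC replicate 3, at 3.3%).

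The median difference of pyruvate entry was 0.22 on the first slide alone and ranged from 0.17 to 0.22 with 1 sample left out. That of kinases and phosphatases was 0.21 with array weights and ranged from 0.11 to 0.19 with 1 sample left out. That of cycle enzymes was 0.05 on the second slide alone and ranged from 0.08 to 0.16 with 1 sample left out. That of cytosolic counterparts was -0.028 with MSC replicates 3 and 4 both left out and ranged from -0.001 without MSC replicate 3 to 0.16. The causes of these shifts were not tested. For Mpc1, Pdhb, Dld, Idh2, Dlst, Sucla2 and Mdh2 the difference kept its sign in all 25 alternatives. The FDR of Pdhb ranged from 0.116 to 0.816.

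With the replicate number as a block, 7 members were higher at an unadjusted p under 0.05 (the same 6 and Mdh1, at 6.28% of all genes) and the differences were 0.29 for Pdhb and 0.47 for Dld. Same-numbered samples had correlated deviations for numbers 1 and 2 (r across genes 0.199 and 0.326) and not for 3 and 4 (-0.348 and 0.0458). Samples numbered 1, 2 and 4 shared a slide and those numbered 3 did not. These values therefore cannot decide whether the numbers mark pairs. Depth is not defined for arrays, and all members were well above background on every array by the probes used.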
